A study of Mus musculus with 12 samples.

Results

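The EGR factors and NAB corepressors were 6 mouse genes chosen by name, Egr1, Egr2, Egr3, Egr4, Nab1 and Nab2, among the 49671 genes of the count files, and each name matched 1 Ensembl identifier. RNA-seq was performed on NIH 3T3, a mouse embryonic fibroblast cell line, after transfection with control siRNA (a commercial negative control) or with 1 siRNA against all isoforms of Lap2, the lamina-associated polypeptide made by Tmpo. Cells were kept in 0.3% FBS overnight (serum-starved) or then stimulated with 15% FBS for 45 min (serum-stimulated), with 3 libraries in each of the 4 groups. All groups were transfected, so untransfected cells are not part of any comparison, and the Lap2-depleted cells rest on a single siRNA sequence. Nothing in the labels says whether the libraries of a group came from separate cultures, so p-values measure the spread between these libraries, which may be technical. In bulk RNA, fewer cells with a transcript and less of it per cell cannot be told apart.

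The EGR proteins are zinc-finger transcription factors that bind GC-rich DNA and are made within minutes of growth factor stimulation. Their genes are immediate-early genes: serum activates the ERK kinases, which phosphorylate the ternary complex factors (TCFs) Elk1, Elk3 and Elk4 bound together with SRF at CArG boxes and ETS sites. NAB1 and NAB2 have no DNA-binding domain of their own. They bind several of the EGR proteins, not all of them, and repress the activity of those, in part through the CHD4-containing NuRD complex. Nab2 is itself an EGR-induced gene, which closes a negative feedback loop.

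RefSeq promoter entries (GRCm38.p6, 250 bases before to 50 after a start) were matched for Egr2, Egr4, Nab1 and Nab2. The stretches shown are those before the starts of Egr2 and Egr4, the members with an entry that serum raised by the largest factors. Capitals mark a CArG box (the SRF-binding element), an EGR site (GCGNGGGCG), an ETS site (CCGGAA) or a CRE half-site (TGACG), each searched on both strands, and neighbouring or overlapping matches run together.
Egr2, chr10:67537619-67537868, plus strand: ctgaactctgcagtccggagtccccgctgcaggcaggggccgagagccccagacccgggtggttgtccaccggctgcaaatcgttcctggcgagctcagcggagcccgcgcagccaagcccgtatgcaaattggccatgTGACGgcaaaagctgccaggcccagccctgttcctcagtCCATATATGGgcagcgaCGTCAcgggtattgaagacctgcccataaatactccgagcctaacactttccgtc
Egr2, chr10:67537316-67537565, plus strand: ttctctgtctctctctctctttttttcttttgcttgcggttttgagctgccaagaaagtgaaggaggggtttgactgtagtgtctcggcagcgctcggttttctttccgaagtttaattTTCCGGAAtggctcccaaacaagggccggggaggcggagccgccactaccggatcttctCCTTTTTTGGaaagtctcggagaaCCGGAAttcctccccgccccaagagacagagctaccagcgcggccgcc
Egr4, chr6:85513590-85513839, minus strand: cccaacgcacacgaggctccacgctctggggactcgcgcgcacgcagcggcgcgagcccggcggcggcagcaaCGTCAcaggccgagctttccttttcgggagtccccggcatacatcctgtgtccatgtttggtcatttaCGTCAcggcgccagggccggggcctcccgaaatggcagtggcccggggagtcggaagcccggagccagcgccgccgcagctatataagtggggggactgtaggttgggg
The first Egr2 stretch held a CArG box from base -72 to -63, counted from the start, between 2 CRE half-sites. The second, before another annotated start of the gene, held a CArG box at the same distance from that start and 3 matches to the ETS site, 2 of which overlap. Of the 5 starts annotated for Egr2, those at 67537869, 67537870 and 67537930 shared the first CArG box, and the window of the start at 67535499 held none of the 4 motifs. The Egr4 stretch held 2 CRE half-sites and no match to the CArG box, EGR site or ETS site.

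The Nab1 window held 3 EGR sites, shown because they match the site that EGR proteins bind: CGCCCACGC from base -141 to -133, GCGTGGGCG from -109 to -101 and GCGGGGGCG from -38 to -30, counted from the start on the gene's strand. The Nab2 window held none of the 4 motifs. Its start, at 127666703, lies inside the gene span, whose upstream end on the minus strand is at 127668568. No window at that end was searched, so EGR sites there were not looked for. Of the 32851 mouse promoter windows of this length, 1.63% held a CArG box, 5.55% an EGR site, 14.9% an ETS site and 20.8% a CRE half-site. A match is a run of letters and not a measured binding site, and a window without one says nothing of the factor.

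Egr1 lies on chromosome 18 (34859823-34864984, plus strand), Egr2 on chromosome 10 (67535475-67542188, plus strand), Egr3 on chromosome 14 (70077445-70080157, plus strand) and Egr4 on chromosome 6 (85511121-85513589, minus strand), all as GRCm38 coordinates of the whole gene. Nab1 lies on chromosome 1 (52457294-52500679, minus strand) and Nab2 on chromosome 10 (127660918-127668568, minus strand). Nab2 overlaps Stat6, Nemp1 and the antisense gene Gm16229 on the plus strand. The library kit was directional but the strand setting of the counting was not given in the sources used here, so reads of Nab2 and of these neighbours may not be fully separated.

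The 12 libraries held 18026298 to 26265253 counts in genes, and mitochondrial genes took 2.69% to 3.95% of them. Counts were scaled by TMM (edgeR), and a gene was called when its adjusted p in edgeR's quasi-likelihood test was under 0.05 over 18668 genes, those counted more than once in 3 libraries or more. All 6 members passed that filter. Tmpo, the targeted gene, had 2775 to 2885 normalized counts with control siRNA and 982 to 1175 with Lap2 siRNA in 0.3% FBS, and 3019 to 3264 against 607 to 767 in 15% FBS. The depletion was larger after serum, with a log2FC of -1.38 ± 0.08 (SE) in 0.3% FBS and -2.17 ± 0.08 in 15% FBS, a difference that was itself called (edgeR adjusted p = 3.0e-06), and the level matched the siRNA label in every library. The 7 fibroblast markers (Col1a1, Col1a2, Pdgfrb, Vim, S100a4, Thy1 and Lox) were detected in every group, with a summed level of 22419 to 23582 CPM with control siRNA and 14393 to 16558 CPM with Lap2 siRNA in 0.3% FBS, and 24081 to 26382 against 17919 to 20764 CPM in 15% FBS. The summed levels of 4 epithelial, 3 leukocyte, 3 endothelial and 3 neuronal markers were at most 12.7 CPM in any library, with Krt18 at 0 counts in all. The neuronal marker Tubb3, a tubulin, was called lower with Lap2 siRNA, at -3.0 ± 0.24 in 0.3% FBS and -1.83 ± 0.21 in 15% FBS, and the other neuronal, epithelial, leukocyte and endothelial markers tested were not called in these comparisons. With Lap2 siRNA in 0.3% FBS, 1 of the 7 fibroblast markers was called higher and 5 lower, against 17.8% and 18.6% of all genes tested. In 15% FBS these were 1 and 4, against 11.4% and 12.1%. The part of the lower fibroblast and Tubb3 levels in the siRNA differences below was not tested.

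Serum raised all 6 members in control siRNA treated cells, the EGR factors by far more than the NAB corepressors. Of all genes tested, 15.6% were called higher and 13.9% lower in this comparison. Egr1, the founding member of the family, had 919.6, 748 and 686 normalized counts in the starved libraries and 32533, 33195 and 28010.5 in the stimulated ones. Egr2, also known as Krox20 and required for Schwann cell myelination, had 135, 129 and 121 before serum and 11279.5, 11541 and 10754 after it. Egr3, which has roles in muscle spindles and lymphocytes, had 171, 137 and 126 before and 13567, 13134.5 and 11592.5 after. No stimulated library came near a starved one for these 3 genes. Their fold increases were 39.8 for Egr1 (log2FC 5.31 ± 0.10 SE), 86.9 for Egr2 (6.44 ± 0.08) and 88.1 for Egr3 (6.46 ± 0.10), with edgeR adjusted p of 4.6e-30, 3.1e-34 and 1.6e-31.

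Egr4, best known from neurons, was close to silent in starved cells, with 2, 7 and 1 raw counts in the control siRNA libraries. After serum these were 1149, 1125 and 780. The pooled counts gave a 312-fold increase with a 95% exact counting interval of 169 to 651, which covers counting error only, and the fitted log2FC of 8.23 ± 0.21 was the 2nd largest of the 18668 genes tested (edgeR adjusted p = 1.3e-25). The fold rests on the starting level: without the second control siRNA library in 0.3% FBS, which held 7 of the 10 counts, the log2FC was 9.25. Egr3, Egr2 and Egr1 ranked 22nd, 23rd and 46th by log2FC.

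The corepressors rose less and from a higher start. Nab1 had 923, 1052 and 1032 normalized counts in starved control siRNA treated cells and 1933, 1630.1 and 1671 in stimulated ones, a 1.74-fold increase (log2FC 0.80 ± 0.08, edgeR adjusted p = 5.2e-10). Nab2 had 2919.6, 2559 and 2449.6 before serum and 8699, 8156 and 8767 after, a 3.23-fold increase (log2FC 1.69 ± 0.07, edgeR adjusted p = 3.0e-20). The groups did not overlap for either gene. Within each library, the log2 ratio of Nab2 to Nab1 counts went from 1.40 ± 0.23 (SD, n = 3) to 2.29 ± 0.11. With 3 libraries against 3, an exact two-sided permutation test of such a ratio cannot go below p = 0.1, and none of the 28 ratio tests had an adjusted p under 0.127.

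**Figure D1:**
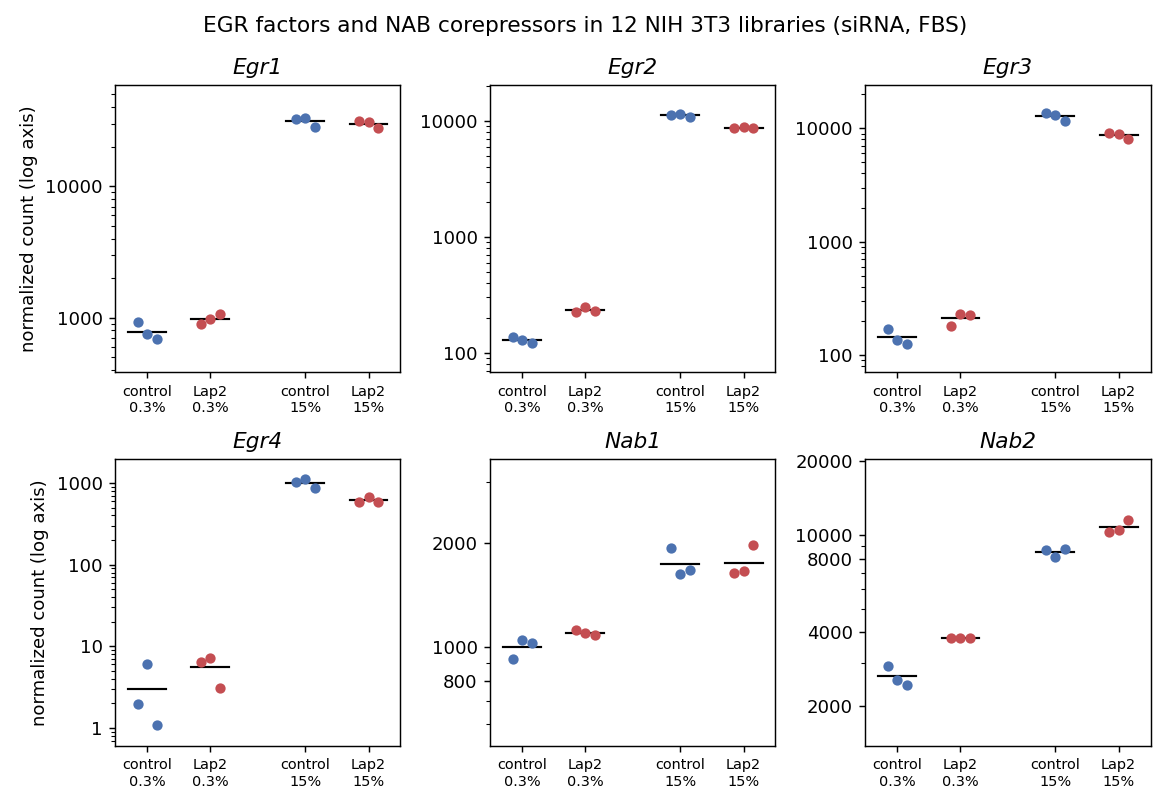
Normalized counts (log axis) of the 6 genes in each of the 12 libraries, by siRNA (blue control, red Lap2) and FBS, with a line at each group's mean. Every stimulated library lay above every starved one of the same siRNA. The red points lie above the blue ones in 0.3% FBS for Egr2, Egr3, Nab1 and Nab2, and in 15% FBS below them for Egr2, Egr3 and Egr4 and above them for Nab2.

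In Lap2-depleted cells serum again raised all 6 genes, where 18.3% of genes tested were called higher and 14.9% lower. The log2FC was 4.93 ± 0.09 for Egr1, 5.22 ± 0.08 for Egr2, 5.35 ± 0.10 for Egr3, 6.74 ± 0.21 for Egr4, 0.67 ± 0.08 for Nab1 and 1.50 ± 0.07 for Nab2. The largest edgeR adjusted p of these was 2.2e-08, for Nab1. As folds these were 30.5 for Egr1, 37.3 for Egr2, 40.7 for Egr3 and, from the pooled Egr4 counts, 109 with a counting interval of 68.0 to 188. By log2FC the 4 EGR genes ranked 33rd, 25th, 21st and 5th among the genes tested.

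Serum calls across all genes depended on the scaling, which did not change these calls of the 6 members. With control siRNA, 2915 genes were called higher and 2597 lower after TMM scaling, 1632 and 5847 after scaling to total counts, and 2183 and 3878 after upper-quartile scaling. With Lap2 siRNA the numbers were 3420 and 2777, then 1658 and 5951, then 2383 and 3942. Scaling to total counts moved the median log2FC of all genes to -0.21 with control siRNA and to -0.23 with Lap2 siRNA. The members' serum log2FC ranged over the scalings, filters and models from 0.59 to 0.81 for Nab1 and from 5.11 to 5.32 for Egr1 with control siRNA. With Lap2 siRNA, that of Nab1 was 0.44 after scaling to total counts against 0.67 after TMM scaling.

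Without serum, Lap2-depleted cells held more of most members. In 0.3% FBS, 17.8% of genes tested were called higher and 18.6% lower with Lap2 siRNA, and 4 of the 6 members were called higher and 0 lower. Egr2 showed the largest called difference, with 225, 249.7 and 229 normalized counts in Lap2-depleted cells against 135, 129 and 121 with control siRNA. Every Lap2 siRNA library lay above every control one, and the fold was 1.82 (log2FC 0.86 ± 0.09, edgeR adjusted p = 3.5e-09). Egr3 had 182, 232 and 225 counts with Lap2 siRNA against 171, 137 and 126, a 1.46-fold difference without overlap (0.55 ± 0.12, edgeR adjusted p = 2.8e-04). Egr1 had 901, 971 and 1063 against 919.6, 748 and 686. The first control library lay inside the range of the Lap2 siRNA libraries, and the 1.25-fold difference was called at an edgeR adjusted p of 0.0048 (log2FC 0.32 ± 0.09).

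Nab2 had 3811, 3791 and 3801 normalized counts with Lap2 siRNA and 2919.6, 2559 and 2449.6 with control siRNA in 0.3% FBS, a 1.44-fold difference without overlap (log2FC 0.52 ± 0.07, edgeR adjusted p = 1.0e-07). Its plus-strand neighbours also had higher means with Lap2 siRNA: Stat6 had 1966 to 2160.0 counts with control siRNA and 2476 to 2709.9 with Lap2 siRNA, and Nemp1 344 to 362 and 648 to 755. The part of these neighbours in the Nab2 counts was not tested. Nab1 had 1125, 1103 and 1083 counts against 923, 1052 and 1032, again without overlap, but its log2FC of 0.14 ± 0.08 was not called (edgeR adjusted p = 0.20). It was called after scaling to total counts, at 0.25 ± 0.08 (edgeR adjusted p = 0.015), a scaling that moved the median of all genes to 0.12. Egr4 had 7, 7 and 3 raw counts against 2, 7 and 1, and a difference was not detectable at this depth: the pooled fold of 1.74 had a counting interval of 0.754 to 4.26.

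After serum the pattern differed by gene. In 15% FBS, 11.4% of genes tested were called higher and 12.1% lower with Lap2 siRNA. Egr2, Egr3 and Egr4 were called lower, Nab2 was called higher, and Egr1 and Nab1 were not called. Egr4 had 582, 679.7 and 582 normalized counts in Lap2-depleted cells against 1019.5, 1113 and 869.9, which was 0.614 of the control level (log2FC -0.70 ± 0.10, edgeR adjusted p = 2.6e-06). Egr3 had 9056, 8859 and 8023 against 13567, 13134.5 and 11592.5, or 0.677 of control (-0.56 ± 0.07, edgeR adjusted p = 4.6e-07). Egr2 had 8629, 8839 and 8726 against 11279.5, 11541 and 10754, or 0.780 of control (-0.36 ± 0.06, edgeR adjusted p = 1.7e-05). For each of these 3 genes every Lap2 siRNA library lay below every control one.

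Egr1 had 31306, 30661 and 27545 counts in stimulated Lap2-depleted cells and 32533, 33195 and 28010.5 in control siRNA treated cells, and the ranges overlapped. Its log2FC was -0.07 with a 95% interval of -0.23 to 0.09 (edgeR adjusted p = 0.63), and it was 0.02 after scaling to total counts. Nab2 had 10259.9, 10469 and 11512 against 8699, 8156 and 8767, a 1.26-fold difference without overlap (0.33 ± 0.07, edgeR adjusted p = 2.1e-04). Of its plus-strand neighbours, Stat6 had 2249 to 2388 against 1948 to 2032 and Nemp1 496 to 578 against 327 to 391. Gm16229 had 83.8 to 134 against 62.5 to 154, with overlap. The part of these neighbours in the Nab2 counts was not tested here either. Nab1 had 1638, 1665 and 1975 against 1933, 1630.1 and 1671, with a log2FC of 0.01 and a 95% interval of -0.15 to 0.17. The calls across all genes in this comparison also moved with the scaling, from 2125 higher and 2250 lower to 3471 and 1678 after scaling to total counts. In 0.3% FBS they moved from 3330 and 3480 to 4692 and 2638.

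**Figure D2:**
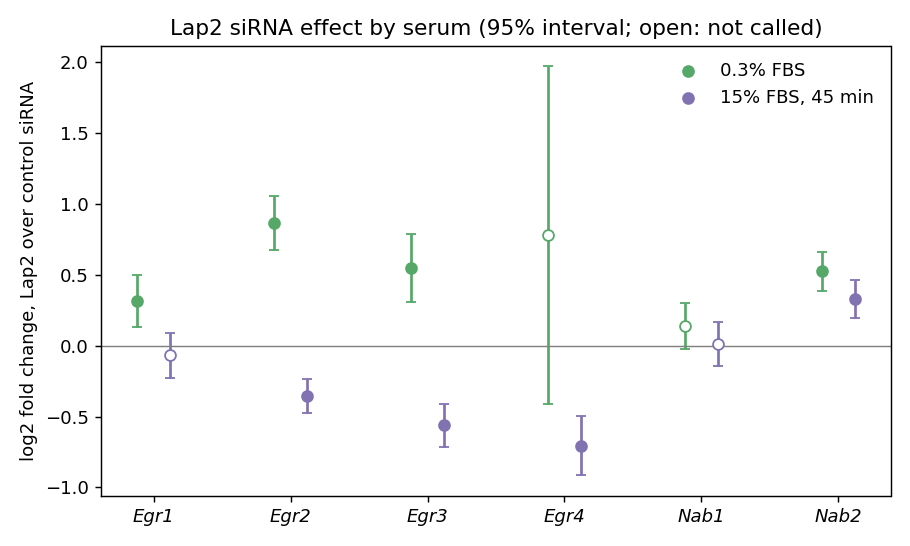
Log2 fold change of Lap2 over control siRNA with its 95% interval (edgeR) for the 6 genes, in 0.3% FBS (green) and after 45 min of 15% FBS (purple), with open points where the gene was not called. Egr2 and Egr3 were above 0 in 0.3% FBS and below 0 in 15% FBS, and Nab2 was above 0 in both.

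The test of the difference between the serum responses asked whether serum raised a gene by another factor in Lap2-depleted cells. Of the genes tested, 7.09% had a response called larger and 6.51% one called smaller with Lap2 siRNA. Egr2 had the smaller response by a log2 difference of -1.22 ± 0.11 (edgeR adjusted p = 8.9e-10), so its induction was 0.429 of that with control siRNA. The corresponding fraction was 0.462 for Egr3 (-1.11 ± 0.14, edgeR adjusted p = 4.9e-07) and 0.767 for Egr1 (-0.38 ± 0.12, edgeR adjusted p = 0.026). For Egr2 and Egr3 the difference joins a higher level before serum and a lower one after it. For Egr1 only the level before serum was called different. The Egr1 call was lost without any one of 6 of the 12 libraries (starved control 2 or 3, stimulated control 1 or 2, starved Lap2 siRNA 3 or stimulated Lap2 siRNA 3), where the edgeR adjusted p lay between 0.056 and 0.088.

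Egr4 had the largest difference of the 6, -1.49 ± 0.60, but with an interval of -2.70 to -0.27 and its few starved counts it was not called (edgeR adjusted p = 0.10). It was called by DESeq2 (adjusted p = 0.049), and without the second starved control library, where the difference was -2.52 (edgeR adjusted p = 0.025). The differences for Nab1, -0.13 ± 0.11, and Nab2, -0.19 ± 0.09, were not called (edgeR adjusted p = 0.54 and 0.20). Without the first starved control library, that of Nab2 was -0.29 and was called (edgeR adjusted p = 0.029). The difference and the separate siRNA comparisons share libraries and are not independent of each other.

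Ratios of members within a library need no scaling between libraries. In 15% FBS the log2 ratio of Egr2 to Egr1 counts was -1.48 ± 0.08 (SD, n = 3) in control siRNA treated and -1.77 ± 0.10 in Lap2-depleted cells. That of Egr3 to Egr1 went from -1.29 ± 0.04 to -1.79 ± 0.01, and that of Egr4 to Egr1 from -4.97 ± 0.06 to -5.60 ± 0.13. All 3 were lower in each Lap2 siRNA library than in each control one, so in these libraries the other EGR genes were lower relative to Egr1 whatever the scaling. The log2 ratio of Nab2 to Nab1 went from 2.29 ± 0.11 to 2.61 ± 0.06, also without overlap. Each had p = 0.1 in the exact two-sided permutation test, the smallest this design can give, and 0.13 after adjustment over 28 tests.

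Before serum the ratios of Egr2 and Egr3 to Egr1 lay the other way. In 0.3% FBS the log2 ratio of Egr2 to Egr1 was -2.58 ± 0.14 in control siRNA treated and -2.05 ± 0.14 in Lap2-depleted cells, and that of Egr3 to Egr1 was -2.42 ± 0.01 and -2.20 ± 0.13, both without overlap. Of the 7 pairs, 4 did not overlap between the siRNAs in 0.3% FBS and 6 in 15% FBS. The EGR pairs share genes and are not independent. The share over all pairs of genes was not computed, so these counts are not read as particular to the members. Egr3 to Egr4 in 15% FBS was the pair that overlapped there, with -3.67 ± 0.10 and -3.81 ± 0.13 for Egr4 over Egr3.

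Levels of different genes were compared per kb of exon (RPKM from TMM-scaled counts). In starved control siRNA treated cells Nab2 was highest at 42.6 ± 3.97 RPKM (SD, n = 3), followed by Nab1 at 11.6 ± 0.800, Egr1 at 8.29 ± 1.28, Egr3 at 4.02 ± 0.646, Egr2 at 1.79 ± 0.102 and Egr4 at 0.067 ± 0.059. After serum the order was Egr3 at 355 ± 28.8, Egr1 at 330.4 ± 29.8, Egr2 at 156 ± 5.59, Nab2 at 138 ± 5.39, Egr4 at 22.1 ± 2.70 and Nab1 at 20.2 ± 1.90. The ranges of Egr3 and Egr1 overlapped between libraries, though Egr3 was above Egr1 within each of the 3, and those of Egr4 and Nab1 overlapped as well. The place of Egr3 rests on its length: the gene span in the count files holds 1707 bases of exon. Dividing the same counts by the 4406 bases of all its GENCODE M21 exons gave 137 ± 11.2 RPKM, which did not differ from Nab2 beyond the spread. Reads were not recounted over the added bases, which lie outside that span. The value with the longer length may therefore be too low and is not an equal alternative.

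In Lap2-depleted cells the starved order was the same, with Nab2 at 61.3 ± 0.166, Nab1 at 12.8 ± 0.244, Egr1 at 10.3 ± 0.861, Egr3 at 5.91 ± 0.752, Egr2 at 3.27 ± 0.186 and Egr4 at 0.124 ± 0.049 RPKM. After serum Egr1 came first at 315 ± 21.3, then Egr3 at 240.1 ± 15.2, Nab2 at 173 ± 10.8, Egr2 at 122 ± 1.47, Nab1 at 20.3 ± 2.16 and Egr4 at 13.6 ± 1.25. Dividing the same Egr3 counts by the longer length, again without recounting, gave 93.0 ± 5.90 RPKM after serum, below Nab2 and Egr2. Nab2 stood above Egr2 in every stimulated Lap2 siRNA library and below it in every stimulated control one. Nab1 stood above Egr4 in each stimulated Lap2 siRNA library, but also in the third stimulated control one, at 19.3 against 19.2 RPKM. In the first stimulated control library Nab1 had 22.4 and Egr4 22.5 RPKM.

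The summed EGR level per summed NAB level was 0.261 ± 0.021 in starved control siRNA treated cells (SD, n = 3) and 0.265 ± 0.022 in starved Lap2-depleted cells, with overlapping ranges. After serum it was 5.54, 6.00 and 4.90 in the control siRNA libraries and 3.88, 3.77 and 3.11 in the Lap2 siRNA ones. The starved cells held more NAB than EGR transcripts and the stimulated ones more EGR, with the lower excess in all 3 Lap2-depleted libraries. With the longer Egr3 length, and counts taken over the shorter span only, the means in 15% FBS were 4.10 and 2.82. Egr1 made up 38.2% ± 0.664 of the summed EGR level after serum with control siRNA and 45.6% ± 0.681 with Lap2 siRNA, and Egr3 41.1% ± 0.699 and 34.7% ± 0.394. With the longer Egr3 length these shares were 51.1% and 58.0% for Egr1, and 21.3% and 17.1% for Egr3. Before serum, Egr1 made up 58.5% ± 0.718 and 52.7% ± 1.98. These sums add messages of proteins that are not interchangeable and describe RNA only.

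**Figure D3:**
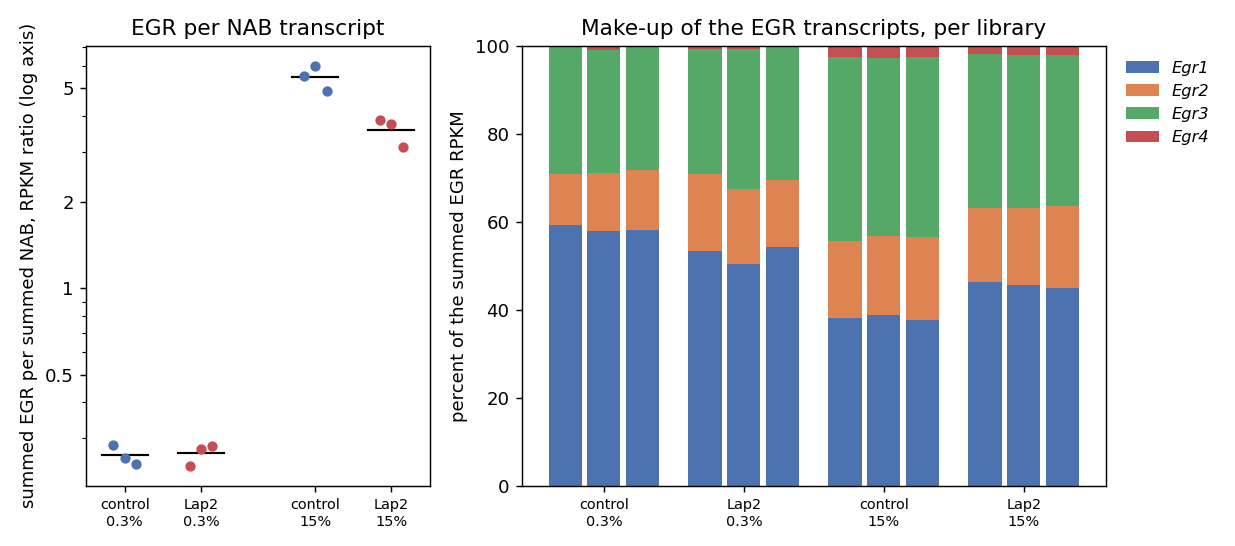
Left, the ratio of the summed EGR level to the summed NAB level (RPKM, log axis) in each library with group means as lines; right, the share of each EGR gene in the summed EGR level, 1 bar per library. The ratio after 15% FBS was 4.90 to 6.00 with control siRNA and 3.11 to 3.88 with Lap2 siRNA, and the Egr1 share after serum was larger with Lap2 siRNA.

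A list of 12 genes held the ERK, TCF and SRF pathway that drives EGR transcription, and also Mrtfa and Mrtfb. Those encode MRTFs, SRF cofactors that compete with the TCFs for SRF. With Lap2 siRNA 0 of the 12 were called higher in either serum condition. In 0.3% FBS 3 were called lower, and in 15% FBS 5. Of all genes tested, 17.8% were called higher and 18.6% lower in 0.3% FBS, and 11.4% and 12.1% in 15% FBS. Elk3, a TCF that can repress its targets until ERK phosphorylates it, was lower in both, with a log2FC of -1.06 ± 0.08 (edgeR adjusted p = 2.5e-13) and -0.82 ± 0.07 (edgeR adjusted p = 2.1e-10). Srf itself had a log2FC of 0.03 ± 0.06 in 0.3% FBS, where it was not called, and -0.59 ± 0.06 in 15% FBS (edgeR adjusted p = 1.0e-09). Mapk3, which encodes ERK1, was also called lower in both, and Elk1, another TCF, in 15% FBS. The median log2FC of the 12 was 0.00 in 0.3% FBS and -0.15 in 15% FBS, against 0.01 and 0.02 over all genes tested.

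Serum raised Srf with both siRNAs, by a log2FC of 3.74 ± 0.07 in control siRNA treated cells and 3.12 ± 0.06 after Lap2 depletion. The responses differed by -0.62 ± 0.08 (edgeR adjusted p = 2.2e-06). In all, 4 of the 12 pathway genes rose and 2 fell with control siRNA, against 15.6% and 13.9% of all genes tested. With Lap2 siRNA 6 rose and 2 fell, against 18.3% and 14.9%. Those that fell were Mrtfa and Mrtfb with either siRNA. After scaling to total counts the pathway genes that rose and fell were 3 and 4, and 4 and 5. In 0.3% FBS that scaling called 1 of the 12 higher with Lap2 siRNA, and 3 were called higher without the first starved Lap2 siRNA library.

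A list of 21 genes known as EGR targets moved in both directions with Lap2 siRNA: in 0.3% FBS 9 were called higher and 6 lower, and in 15% FBS 5 and 7. Cd44, a hyaluronan receptor, was highest of the called genes in 0.3% FBS at 0.80 ± 0.08. Igf2, a fetal growth factor, was lowest of the called genes at -3.49 ± 0.17 and Fgf2 was at -1.59 ± 0.21. In 15% FBS Sphk1, a sphingosine kinase, was called higher at 0.57 ± 0.10. F3, the coagulation factor receptor known as tissue factor, and Fgf2 were lowest among the called genes, both at -0.74 (SE 0.07 and 0.20). Over all genes tested, 17.8% were called higher and 18.6% lower in 0.3% FBS, and 11.4% and 12.1% in 15% FBS. The median log2FC of the list was 0.13 in 0.3% FBS and -0.18 in 15% FBS. Many of these genes answer to other serum-activated factors as well.

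Serum called 14 of the 21 higher and 1 lower with control siRNA, against 15.6% and 13.9% of all genes tested. With Lap2 siRNA it called 15 higher and 2 lower, against 18.3% and 14.9%. Hbegf, an EGF-family ligand, had a serum log2FC of 6.74 ± 0.11 with control siRNA and 6.25 ± 0.11 with Lap2 siRNA. The difference between the serum responses was called larger for 7 of the list and smaller for 7, against 7.09% and 6.51% of all genes tested. Igf2 had the most positive difference at 3.13 ± 0.22 and Ccnd1, cyclin D1, the most negative at -1.02 ± 0.16.

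The 13 NuRD genes, among them the remodellers Chd3 and Chd4 and the deacetylases Hdac1 and Hdac2, were called most often in the serum comparison with Lap2 siRNA. With Lap2 siRNA in 0.3% FBS 4 were called lower and 0 higher, with Hdac2 at -0.45 ± 0.06 and Chd3 at -0.45 ± 0.07, and in 15% FBS only Chd3 was called, at -0.32 ± 0.07. After scaling to total counts 5 were called higher and 2 lower in 0.3% FBS, so the direction of the list there depended on the scaling, and 2 were called higher without the first starved Lap2 siRNA or the second starved control library and 1 without the second starved Lap2 siRNA library. Of all genes, 17.8% and 18.6% were called higher and lower in 0.3% FBS, and 11.4% and 12.1% in 15% FBS. Serum called 3 of the NuRD genes higher and 1 lower with control siRNA, against 15.6% and 13.9% of all genes. With Lap2 siRNA it called 7 higher and 1 lower, against 18.3% and 14.9%. Scaling to total counts turned the NuRD calls to 1 and 6, and 1 and 4, and upper-quartile scaling to 2 and 2, and 4 and 2. Chd4 itself was called in none of the 5 contrasts. Of the zinc-finger genes Sp1, Sp3 and Wt1, whose products bind GC-rich sites like those of the EGR proteins, Wt1 did not pass the filter. Sp3 was lower with Lap2 siRNA in 0.3% FBS at -0.26 ± 0.07 (edgeR adjusted p = 0.0037) and was not called in 15% FBS. Its call in 0.3% FBS was lost after scaling to total counts and without the second starved control library.

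Among 18 other immediate-early transcription factor genes, serum called 17 higher with control siRNA and 18 with Lap2 siRNA, with a median log2FC of 4.15 and 3.54. Of all genes tested, 15.6% and 18.3% were called higher. With Lap2 siRNA in 0.3% FBS 6 of the 18 were called higher and 8 lower, against 17.8% and 18.6% of all genes. In 15% FBS these were 3 and 8, against 11.4% and 12.1%. Fosl1, an AP-1 subunit, was the highest of them in 0.3% FBS at 1.62 ± 0.11 and had the most negative difference between the serum responses at -1.81 ± 0.14. Jund, another AP-1 subunit, had the most positive at 0.96 ± 0.10. Responses called smaller numbered 7 and larger 4, against 6.51% and 7.09% of all genes. The direction seen for Egr1, Egr2 and Egr3 was thus not shared by the whole list.

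Across the 12 libraries the log2 CPM of the 4 EGR genes correlated with Pearson's r of 0.991 to 0.998 with each other, and of Nab1 and Nab2 with them of 0.956 to 0.972. These values describe mainly the step between starved and stimulated libraries, which all 6 genes share. The comparison covered 10443 genes whose mean normalized count reached 100. The non-member genes most like Egr1 were Fos (r = 0.999), Csrnp1 and Zc3h12a. For Egr2 they were Arc (r = 0.999), Zc3h12a and Pim1, for Egr3 Ptger4 (r = 0.999), Elmsan1 and Errfi1, and for Egr4 Coq10b (r = 0.997), Maff and Rabgef1. For Nab2 they were Smad7 (r = 0.997), Pvr and Tollip, and for Nab1 Zc3h15 (r = 0.990), Rap1b and Bzw1. Egr1 and Egr2 shared Zc3h12a and the other lists had no gene in common.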

How the data were processed

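RNA-seq was measured in 12 libraries of NIH 3T3 cells. The deposited values are raw gene counts: the authors aligned reads to mm10 (GRCm38) with TopHat2 and counted them with HTSeq. Their versions, the annotation and the strand setting were not given in the sources used here. The authors compared groups with a DESeq count test and a count cutoff above 1.

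From the counts, edgeR 4.0.16 in R 4.3.3 was used with TMM scaling, glmQLFit and glmQLFTest over 18668 genes counted more than once in 3 or more libraries, 1 mean per group, no block, and Benjamini-Hochberg adjustment at 0.05. Genes at low counts carry little precision at 18026298 to 26265253 counts per library. Normalized counts are counts over the TMM-scaled library size, brought to the mean size. RPKM divides TMM-scaled CPM by the exon length (GENCODE M21) inside the gene span of the files. Member ratios used counts plus 2, or 0.5 as an alternative, and exact permutation tests (scipy 1.17.1). Counting intervals are exact at 95%. DESeq2 1.42.0, other scalings and filters, a replicate block and leaving out each library were tried as alternatives. Only the edgeR fit was run on simulated counts, with changes set in 1 group among genes well above the floor. That run does not cover genes at low counts, such as Egr4 in starved cells, or the ratio tests.

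Named were the 6 members and Tmpo, of each list at most the 2 largest and 2 smallest log2FC among called genes in a contrast, and the 3 genes most like each member. Some genes that this rule names are not reported here. Names beyond this rule (Srf, Mapk3 and Elk1 in the siRNA comparisons, Chd4, Tubb3 and the neighbours of Nab2) were added after their values were seen. Members and lists were chosen with earlier results of these data known. The titles number the 12 libraries in a row, and the replicate numbers used here are their order within each group. Same-numbered libraries did not deviate together (correlations of -0.12 to 0.099), and the numbers were not taken as pairs. This order cannot show whether the experiment was paired.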

Additional observations from a re-analysis of the deposited data

Results flagged for a closer look

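The response to serum differed between the siRNAs, by the test of the difference itself, for 3 members and for Tmpo. The log2 response with Lap2 siRNA minus that with control siRNA was -0.38 for Egr1, -1.22 for Egr2 and -1.11 for Egr3, with edgeR adjusted p of 0.026, 8.9e-10 and 4.9e-07. For Tmpo, the target of the siRNA, it was -0.79 (edgeR adjusted p = 3.0e-06). Groups of 3 libraries were too small for a test of single outlying libraries.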

How the results depend on the processing

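The number of members called in each of the 5 contrasts, the Tmpo depletion in each serum condition and the number of member ratios without overlap stayed within 1.5 times or on their side of the threshold under all alternatives run, 56 without and 84 with leaving out a library. With leave-one-out, Tmpo ranged from -1.43 to -1.30 in 0.3% FBS and from -2.23 to -2.08 in 15% FBS. Egr4 could not be tested where a count above 1 was asked of every library. The Lap2 siRNA effect on Nab1 in 15% FBS, which was not called, turned to -0.00056 with DESeq2 and ranged from -0.092 to 0.081 with leave-one-out, below 0 without stimulated control library 2 (-0.035) or 3 (-0.014) or stimulated Lap2 siRNA library 3 (-0.092). That on Egr1 in 15% FBS turned to 0.019 after scaling to total counts. The cause was not tested. Of the single members' differences, 225 of the 229 values under alternatives that keep all libraries and 349 of the 360 that leave 1 out kept direction and call. Without the second starved control library the serum log2FC of Egr4 with control siRNA rose from 8.23 to 9.25. Dividing the Egr3 counts by the length of all its GENCODE M21 exons, without recounting reads, was chosen after seeing the data. It lowered the Egr3 share of the EGR level after serum to 21.3% with control siRNA and 17.1% with Lap2 siRNA. The replicate block, which uses the order within each group, called 6, 6, 4, 4 and 3 members in the 5 contrasts, as without it. It changed none of the members' calls. At this depth Egr4 in starved cells, at 1 to 7 counts per library, limits any statement on its level before serum.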
